A study of Homo sapiens with 11 samples.

Results

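The angiogenic and vasoactive factors described here are 10 genes, taken from the count table by gene symbol through their Ensembl identifiers, of 60676 genes in all. They are the vascular endothelial growth factor (VEGF) ligands VEGFA, VEGFB, VEGFC and PGF, the receptor FLT1 and the co-receptor NRP1, the secreted lipase inhibitor ANGPTL4, the vasodilator ADM and the vasoconstrictors EDN1 and EDN2. The rule that names them uses no measured value. All 10 genes passed the filter on low counts, but FLT1 passed only through its hypoxic libraries. RNA was sequenced from RWPE1, an established line of immortalized, non-tumorigenic human prostate epithelial cells. The 11 libraries comprised 3 from normoxia and 3, 3 and 2 from cells kept in hypoxia (1% oxygen) for 6, 12 and 24 h. All groups were grown in the same serum-free keratinocyte medium with pituitary extract and epidermal growth factor. Only the hypoxic medium received 10 mM HEPES buffer, so low oxygen and the buffer cannot be told apart in any comparison with normoxia. The line is 1 immortalized culture, and nothing in the labels says whether replicates came from separate cultures, so p-values measure the spread between these libraries, which may be technical.

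Cells that lack oxygen stabilise the hypoxia-inducible factors, transcription factors that bind a short core sequence near their target genes. Among the best known targets are secreted factors that recruit or dilate blood vessels. VEGF ligands are released by epithelial and tumor cells and act on receptor tyrosine kinases of neighbouring endothelium, neuropilins serve as co-receptors, and adrenomedullin and the endothelins act on G protein-coupled receptors of vessel walls.

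The libraries held 27496009 to 49488345 counted reads. Levels are given in CPM, read counts relative to the size of the library after TMM scaling, a correction for differences in library composition. The TMM factors were 1.29 to 1.32 in normoxia, 0.91 to 1.07 at 6 and 12 h, 0.851 in 24 h replicate 1 and 0.539 in 24 h replicate 2. Mitochondrial genes held 10.2% to 10.4% of the reads in normoxia, 4.30% to 6.78% at 6 and 12 h, 1.74% in 24 h replicate 1 and 0.369% in 24 h replicate 2, so the share was lower in every hypoxic library. The 2 libraries at 24 h lay 139.9 apart on log2 CPM, against 40.3 to 87.1 within the other groups. The 24 h values of the factors are therefore also given for each library alone. The part of library composition in these results was not tested. Of 8 basal epithelial markers, whose summed level was 12590 to 15980 CPM in normoxia and 19600 to 56630 CPM in hypoxia, 3, 4 and 3 were called higher and 2 lower at 6, 12 and 24 h. The summed level of 9 luminal markers was 657 to 769 CPM in normoxia and 921 to 2801 CPM in hypoxia. Of the 6 that passed the filter, 3 were called higher at each time, and 2, 1 and 1 were called lower. Over all genes tested, 25.1%, 24.2% and 29.9% were called higher and 27.7%, 27.1% and 31.3% lower at 6, 12 and 24 h. All marker counts in this paragraph are to be read against these shares. The secreted luminal kallikreins KLK3 and KLK2 were at 0 to 1 counts. The 3 general epithelial markers summed to 633 to 675 CPM in normoxia, 572 to 684 CPM at 6 and 12 h and 412 to 453 CPM at 24 h. Of these 3, 1 was called higher at each time, and 1, 1 and 2 were called lower. The summed level of 9 endothelial markers was 0.666 to 1.15 CPM in normoxia and 2.43 to 6.12 CPM in hypoxia, a difference that lay in ERG and ESAM, while the defining markers PECAM1, CDH5, VWF and CLDN5 had at most 5 counts in any library. The summed level of 6 leukocyte markers was 0.67 to 1.06 CPM in normoxia and 1.71 to 3.38 CPM in hypoxia. Of the 2 that passed the filter, 1 was called higher and 1 lower at each time. For 9 fibroblast and smooth muscle markers the sum was 49.2 to 62.4 CPM in normoxia and 29.7 to 48.9 CPM in hypoxia. Of the 2 that passed, 0 were called higher, and 0, 1 and 1 lower at 6, 12 and 24 h.

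The promoter windows of the genes that were higher at each hypoxic time are printed 5′ to 3′ on the strand of the gene, from 250 bases before to 50 bases after the RefSeq transcription start (RefSeq, GRCh38.p14). Capitals mark each match to ACGTG or GCGTG, the core of the hypoxia response element, on either strand, so CACGT and CACGC are matches on the opposite strand. The table held windows for 8 of the 10 genes, and had none for VEGFA and NRP1. VEGFC lies at chr4:176792873-176793172, PGF at chr14:74955548-74955847 and EDN2 at chr1:41484634-41484933, all on the minus strand. ANGPTL4 lies at chr19:8363905-8364204 and ADM at chr11:10304823-10305122, both on the plus strand.

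VEGFC: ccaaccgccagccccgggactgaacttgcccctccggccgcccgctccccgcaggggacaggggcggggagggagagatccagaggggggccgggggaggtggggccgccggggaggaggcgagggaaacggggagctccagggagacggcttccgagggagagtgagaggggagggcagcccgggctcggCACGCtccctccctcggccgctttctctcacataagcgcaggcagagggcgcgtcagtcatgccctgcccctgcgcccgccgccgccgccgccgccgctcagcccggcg
PGF: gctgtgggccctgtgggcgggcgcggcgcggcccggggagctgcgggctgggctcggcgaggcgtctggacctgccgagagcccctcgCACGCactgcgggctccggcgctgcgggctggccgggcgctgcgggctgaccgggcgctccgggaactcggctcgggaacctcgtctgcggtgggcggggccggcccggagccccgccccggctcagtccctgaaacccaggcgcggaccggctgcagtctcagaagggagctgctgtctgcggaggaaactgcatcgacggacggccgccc
ANGPTL4: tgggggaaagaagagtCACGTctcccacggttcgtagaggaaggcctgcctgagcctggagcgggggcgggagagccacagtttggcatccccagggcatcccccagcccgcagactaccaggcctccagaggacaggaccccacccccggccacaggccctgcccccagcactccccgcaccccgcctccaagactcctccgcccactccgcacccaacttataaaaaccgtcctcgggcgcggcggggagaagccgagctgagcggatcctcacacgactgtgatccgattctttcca
ADM: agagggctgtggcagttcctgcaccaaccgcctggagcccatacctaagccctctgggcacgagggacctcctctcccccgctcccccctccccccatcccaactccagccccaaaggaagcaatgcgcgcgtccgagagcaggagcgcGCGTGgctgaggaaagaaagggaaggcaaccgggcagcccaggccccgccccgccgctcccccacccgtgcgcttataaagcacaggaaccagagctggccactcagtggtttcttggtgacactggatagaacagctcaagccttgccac
EDN2: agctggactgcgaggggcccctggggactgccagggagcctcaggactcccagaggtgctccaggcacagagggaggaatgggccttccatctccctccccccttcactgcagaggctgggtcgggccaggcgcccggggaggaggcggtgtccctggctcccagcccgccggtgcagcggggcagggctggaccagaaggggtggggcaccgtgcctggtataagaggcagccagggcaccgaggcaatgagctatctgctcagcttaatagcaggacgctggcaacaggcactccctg

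VEGFC, PGF, ANGPTL4 and ADM each held 1 match and EDN2 held 0. The ANGPTL4 match was of the ACGTG form. Over all 35116 promoter windows of the same length, 48.4% held at least 1 match and 21.4% held ACGTG, so a match in a window is common. These matches are descriptions of the sequence, and no binding was measured.

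The first question is which of the factors changed when RWPE1 cells were moved to hypoxia. A gene is called changed where edgeR's quasi-likelihood test gave a Benjamini-Hochberg adjusted p under 0.05 over the 19981 genes tested, and all adjusted p-values below come from that fit. FLT1, admitted to the test only by its hypoxic libraries, is left out of the counts and medians in this paragraph, which cover the other 9 genes. At 6 h 7 of the 9 genes were higher, NRP1 was lower and VEGFB was not called. Of all genes tested, 52.8% were called at 6 h, with 25.1% higher and 27.7% lower. At 12 h 6 genes were higher and NRP1 was lower (background 51.2%, with 24.2% higher and 27.1% lower), and VEGFB and EDN1 were not called. At 24 h 7 genes were higher and NRP1 was lower (background 61.2%, with 29.9% higher and 31.3% lower), and VEGFB was not called. The median log2 fold change over the 9 genes was 1.89, 1.90 and 1.66 at 6, 12 and 24 h, against 0.00, -0.03 and -0.06 over all genes tested. The hypoxic and normoxic libraries did not overlap for 8 of the 9 genes at each time, where the shares of all genes were 69.6%, 72.3% and 73.0%. The exact two-sided permutation p was 0.1 for each gene without overlap at 6 and 12 h, and no smaller p is possible with groups of 3. The 3 comparisons share the same normoxic libraries. In bulk RNA, a change in the share of cells that express a gene cannot be told apart from a change in RNA per cell.

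**Figure D1:**
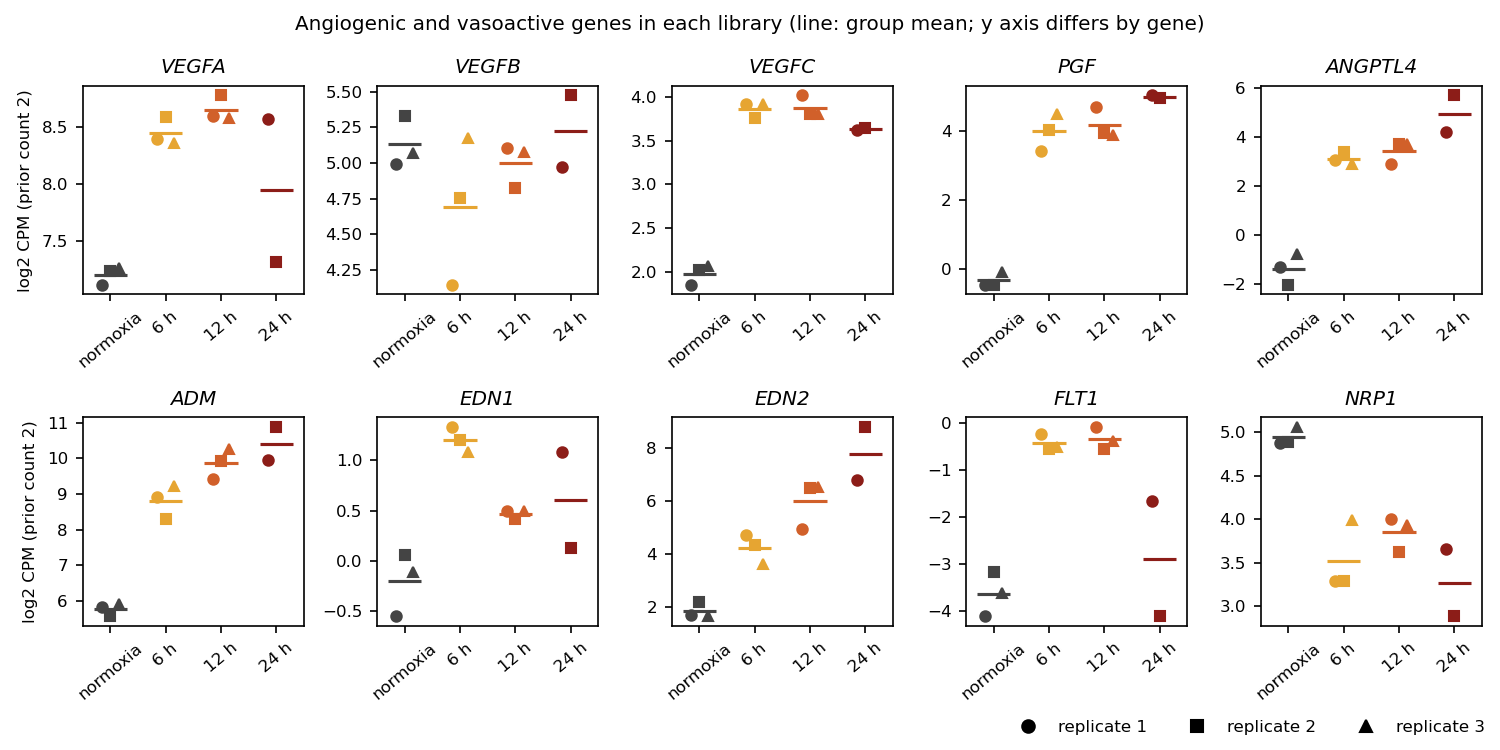
Each panel plots log2 CPM (prior count 2) of 1 gene in the 11 libraries by group, with a marker for each replicate and a line at the group mean; the y axis differs by gene. Hypoxic libraries lie above the normoxic ones for most genes and below them for NRP1, overlap them for VEGFB, and in FLT1 24 h replicate 2 falls to the level of a count of 0.

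VEGFA, the principal growth factor for endothelial cells, had 138, 151 and 154 CPM in the normoxic libraries, 336, 384 and 329 CPM at 6 h, and 387, 439 and 382 CPM at 12 h. All 6 of these hypoxic libraries lay above every normoxic library by a wide margin. VEGFA (ENSG00000112715, chromosome 6, 43770184 to 43786487) rose by a log2 fold change of 1.24 at 6 h (SE 0.24, adjusted p = 0.00102) and 1.45 at 12 h (SE 0.24, adjusted p = 0.00044) in the edgeR fit. At 24 h the libraries stood at 381 and 159.5 CPM, so that replicate 1 matched the earlier times and replicate 2 lay just above normoxia. The 24 h log2 fold change of 0.87 (SE 0.27, edgeR adjusted p = 0.0125) was 1.35 with replicate 1 alone and 0.06 (adjusted p = 0.756) with replicate 2 alone. Gene counts do not separate the isoforms of VEGFA, and an antisense gene covers 1.3% of its exons.

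VEGFB, a relative of VEGFA that binds FLT1, had 31.8, 40.2 and 33.5 CPM in normoxia, 17.7, 26.9 and 36.1 CPM at 6 h, 34.4, 28.3 and 33.7 CPM at 12 h, and 31.3 and 44.4 CPM at 24 h. Its hypoxic and normoxic libraries overlapped at each time. VEGFB (ENSG00000173511, chromosome 11, 64234584 to 64239264) had log2 fold changes of -0.38 (95% interval -0.88 to 0.11), -0.13 (-0.62 to 0.36) and 0.10 (-0.45 to 0.66), with edgeR adjusted p = 0.171, 0.652 and 0.737. The 24 h value was -0.19 with replicate 1 alone and 0.28 with replicate 2 alone. Without 6 h replicate 3 the 6 h value was -0.65 and was called (adjusted p = 0.028).

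VEGFC, the ligand best known for growth of lymphatic vessels, had 3.56, 4.03 and 4.14 CPM in normoxia, 15, 13.4 and 15 CPM at 6 h, 16.1, 13.9 and 13.9 CPM at 12 h, and 12.2 and 12.4 CPM at 24 h. The hypoxic libraries formed a narrow band that did not overlap normoxia, and both 24 h libraries belonged to it. VEGFC (ENSG00000150630, chromosome 4, 176683538 to 176792922) rose by log2 fold changes of 1.89, 1.90 and 1.66 (SE 0.15, 0.15 and 0.16), with edgeR adjusted p = 1.5e-06, 2.43e-06 and 4.78e-06. The 24 h value was 1.62 with replicate 1 alone and 1.61 with replicate 2 alone.

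PGF, placental growth factor, a ligand of FLT1, was scarce in normoxia at 0.67, 0.666 and 0.89 CPM. Its level was 10.6, 16.2 and 22.5 CPM at 6 h, 25.7, 15.1 and 14.6 CPM at 12 h, and 32.3 and 30.5 CPM at 24 h. The lowest hypoxic library lay far above the highest normoxic one. PGF (ENSG00000119630, chromosome 14, 74941834 to 74955626) rose by log2 fold changes of 4.46, 4.63 and 5.40 (SE 0.33, 0.33 and 0.35), the largest changes of the VEGF ligands, with edgeR adjusted p = 1.18e-06, 1.49e-06 and 5.64e-07. Each 24 h library alone gave a similar value, 5.42 for replicate 1 and 5.30 for replicate 2.

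FLT1 (ENSG00000102755, chromosome 13, 28300346 to 28495145), the receptor tyrosine kinase for VEGFA, VEGFB and PGF, had 0, 2 and 1 counts in the normoxic libraries, 23, 19 and 34 counts at 6 h, 26, 21 and 31 counts at 12 h, and 6 and 0 counts at 24 h. It was near the detection limit in normoxia, detected in every library at 6 and 12 h, and in only 1 of the 2 libraries at 24 h. The ratio of its scaled level to normoxia was 27.5 at 6 h (76 counts against 3; exact 95% interval 9.05 to 136) and 29.7 at 12 h (78 against 3; 9.8 to 147), and these intervals cover counting error only. Without normoxia replicate 2, which left 1 normoxic count, the ratios were 57.1 and 61.8, and without normoxia replicate 1 they were 17.8 and 19.2. Since the gene entered the fit only through its hypoxic libraries, no test of it against normoxia is given. At 24 h the ratio was 5.87 (6 counts against 3; 1.25 to 36.3). It was 10.5 with 24 h replicate 1 alone (2.24 to 64.7), 12.2 without normoxia replicate 2 (1.48 to 561) and 3.79 without normoxia replicate 1 (0.81 to 23.4). The 0 counts in 24 h replicate 2 alone allow a ratio of up to 16.1. Gene counts do not separate the membrane receptor from its soluble form, which binds ligand without signalling.

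NRP1, the co-receptor for VEGFA and for class 3 semaphorins, was the only 1 of the 10 genes called lower than in normoxia. It had 29.2, 29.6 and 33.3 CPM in normoxia, 9.70, 9.70 and 15.9 CPM at 6 h, 15.9, 12.3 and 15.2 CPM at 12 h, and 12.6 and 7.30 CPM at 24 h. Every hypoxic library lay below every normoxic one. NRP1 (ENSG00000099250, chromosome 10, 33177492 to 33336262) fell by 1.38, 1.09 and 1.62 on the log2 scale (SE 0.23, 0.23 and 0.27), with edgeR adjusted p = 0.000327, 0.00188 and 0.000258. The 24 h log2 fold change was -1.31 with replicate 1 alone and -2.13 with replicate 2 alone. An antisense gene covers 4.87% of its exons. NRP2, the related co-receptor, had log2 fold changes of 0.85, 1.01 and 0.45 and was called at 6 and 12 h (edgeR adjusted p = 0.00121 and 0.000445) but not at 24 h (0.0607). It was named after its values were seen.

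ANGPTL4, which inhibits lipoprotein lipase and acts on vessel permeability, had 15 counts or fewer in 2 of 3 normoxic libraries, with 0.347, 0.187 and 0.529 CPM. Its level was 8.27, 10.5 and 7.41 CPM at 6 h, 7.37, 13.2 and 13.1 CPM at 12 h, and 18.4 and 52.3 CPM at 24 h. The libraries at 6 and 12 h overlapped each other, both 24 h libraries lay above them, and 24 h replicate 2 was the highest of all. ANGPTL4 (ENSG00000167772, chromosome 19, 8363289 to 8374370) rose by log2 fold changes of 4.59, 4.96 and 6.61 (SE 0.46, 0.46 and 0.49), with edgeR adjusted p = 8.38e-06, 7.49e-06 and 1.18e-06. The 24 h value was 5.65 with replicate 1 alone and 7.12 with replicate 2 alone.

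ADM, which encodes the vasodilator peptide adrenomedullin, had 56.1, 47.2 and 59.8 CPM in normoxia, 482, 314 and 595 CPM at 6 h, 692, 974 and 1233 CPM at 12 h, and 987 and 1887 CPM at 24 h. Each 12 h library lay above each 6 h library, and 24 h replicate 2 was highest. ADM (ENSG00000148926, chromosome 11, 10305073 to 10307397) rose by log2 fold changes of 3.09, 4.15 and 4.72 (SE 0.31, 0.33 and 0.35), with edgeR adjusted p = 8.82e-06, 2.9e-06 and 1.13e-06. The 24 h value was 4.16 with replicate 1 alone and 5.06 with replicate 2 alone.

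The endothelins followed separate courses. EDN1, the vasoconstrictor peptide gene best known from endothelium, was low throughout: 0.624, 0.986 and 0.866 CPM in normoxia, 2.46, 2.24 and 2.07 CPM at 6 h, 1.35, 1.27 and 1.35 CPM at 12 h, and 2.05 and 1.03 CPM at 24 h. It was highest at 6 h, and every hypoxic library lay above normoxia, 24 h replicate 2 only just. EDN1 (ENSG00000078401, chromosome 6, 12290361 to 12297194) had log2 fold changes of 1.45 at 6 h (SE 0.27, adjusted p = 0.000752), 0.69 at 12 h (SE 0.28, 0.0546) and 0.93 at 24 h (SE 0.32, 0.0225) in the edgeR fit. The 12 h value was called without 24 h replicate 1 (0.66, adjusted p = 0.019) or without 24 h replicate 2 (0.68, 0.0152). The 24 h call was lost with replicate 2 alone (0.28, adjusted p = 0.517) and without normoxia replicate 1 (0.75, 0.0861), and with replicate 1 alone the value was 1.30.

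EDN2, a paralog of EDN1 that acts on the same receptors, had 3.21, 4.56 and 3.08 CPM in normoxia, 26.0, 20.4 and 12.2 CPM at 6 h, 31.2, 90.5 and 91.7 CPM at 12 h, and 111 and 446 CPM at 24 h. The groups did not overlap at any step, and the 24 h libraries differed from each other more than those of the other groups did. EDN2 (ENSG00000127129, chromosome 1, 41478775 to 41484683) rose by log2 fold changes of 2.43, 4.30 and 6.27 (SE 0.52, 0.55 and 0.61), with edgeR adjusted p = 0.00177, 6.35e-05 and 5.33e-06. The 24 h value was 4.93 with replicate 1 alone and 6.89 with replicate 2 alone.

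**Figure D2:**
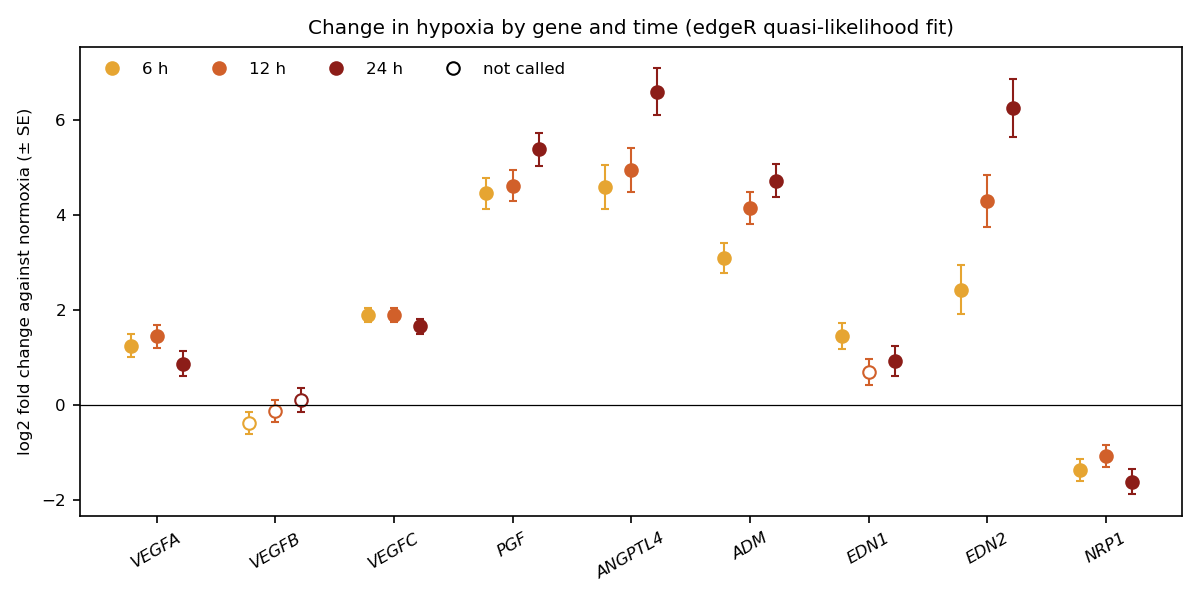
Log2 fold change against normoxia (edgeR, points with bars of 1 SE) for 9 genes at 6, 12 and 24 h, with open points where the gene was not called; FLT1 is left out because its normoxic counts are too low for a fitted value. The points of ANGPTL4, ADM and EDN2 are highest at 24 h, those of VEGFC lie close together, and NRP1 lies below 0 at each time.

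The second question is whether the factors went on changing within hypoxia. Between 6 and 12 h only EDN2 was called (log2 difference 1.87, SE 0.49, edgeR adjusted p = 0.0474, higher in 3 of 3 libraries), where 4.95% of all genes were called, 1.88% as higher and 3.07% as lower. That call lay close to the threshold and was lost in 12 of 20 alternatives, 8 of which left out a single library (any normoxic one, any 6 h one, 12 h replicate 2 or 12 h replicate 3), with adjusted p up to 0.176. ADM was higher in every 12 h library than in any 6 h library (1.06, SE 0.29, edgeR adjusted p = 0.0569). Without 6 h replicate 3, 24 h replicate 1 or 24 h replicate 2 it was called, with adjusted p = 0.0487, 0.00924 and 0.00869. EDN1 was lower in every 12 h library (-0.76, SE 0.26, edgeR adjusted p = 0.119) and was called without 24 h replicate 1 (0.0223) or 24 h replicate 2 (0.0234). These 3 genes were those whose 6 h and 12 h libraries did not overlap (31.6% of all genes). The other 7 had adjusted p of 0.505 to 0.972, and for VEGFC the difference was 0.01 with a 95% interval of -0.29 to 0.31.

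Between 12 and 24 h 3 of the 10 genes were called, or 2 of the 9 without FLT1, where 28.4% of all genes were, 15.1% as higher and 13.3% as lower. ANGPTL4 (log2 difference 1.65, SE 0.38, edgeR adjusted p = 0.0089) and EDN2 (1.97, SE 0.52, 0.0156) were higher, and FLT1 was lower (-2.35, SE 0.67, 0.0216). FLT1 passed the filter through its 6 and 12 h libraries, which favours a fall at 24 h, so its p is not a sound test of that fall. The 3 calls rested on 24 h replicate 2. With 24 h replicate 1 alone the differences were smaller, at 0.69 for ANGPTL4, 0.62 for EDN2 and -1.51 for FLT1. Without 12 h replicate 3 the FLT1 call was lost (-2.38, adjusted p = 0.0505). With 24 h replicate 2 alone the differences were 0.94 for ADM, -1.36 for VEGFA and -1.01 for NRP1. With replicate 1 alone they were 0.02, -0.10 and -0.21. PGF (0.77, adjusted p = 0.0666) was called without 6 h replicate 1 (0.041), 6 h replicate 3 (0.0451) or 12 h replicate 1 (0.0191). The 12 h and 24 h libraries did not overlap for 6 of the 10 genes, or 5 of the 9 without FLT1, against 49.2% of all genes.

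**Figure D3:**
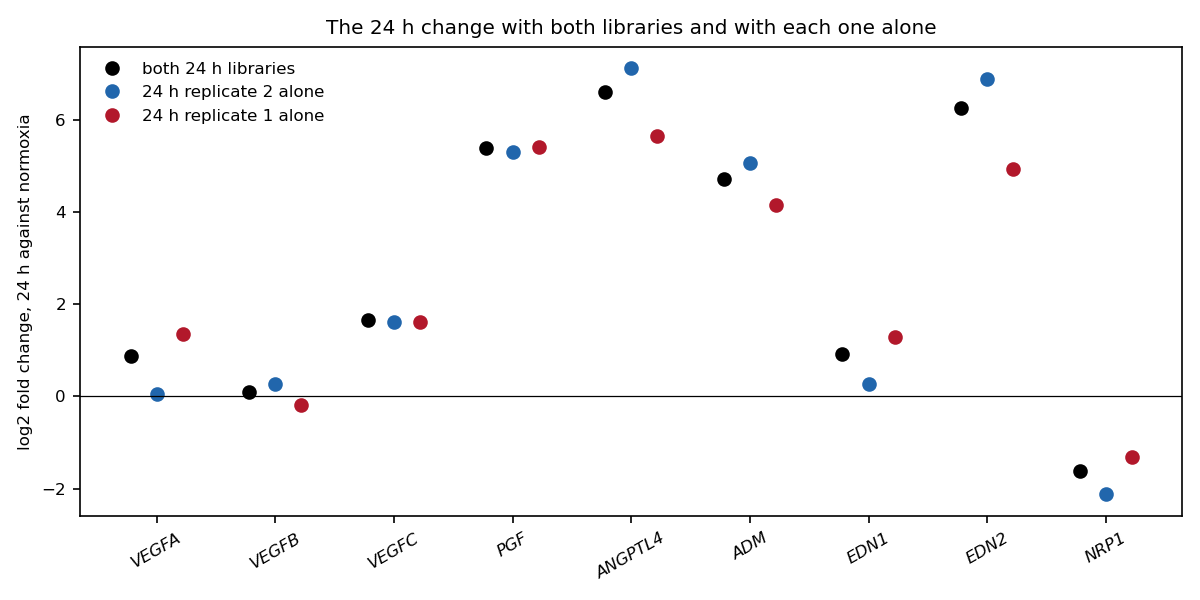
Log2 fold change at 24 h against normoxia for 9 genes, with both 24 h libraries in the fit (black), with replicate 2 alone (blue) and with replicate 1 alone (red). The 3 points nearly coincide for VEGFC and PGF, while VEGFA and EDN1 are near 0 with replicate 2 alone and ANGPTL4, ADM and EDN2 are higher with it.

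Levels of different genes were compared per kilobase of exon, since longer transcripts yield more reads. In normoxia ADM was highest at 23.4 CPM per kilobase (SD 2.8, n = 3), followed by VEGFB at 17.9 (SD 2.26), whose libraries overlapped those of ADM, and by VEGFA at 10.2 (SD 0.564). NRP1 at 2.67 (SD 0.195) and EDN2 at 2.19 (SD 0.496) were neighbours in this order whose libraries overlapped. VEGFC stood at 1.49, EDN1 at 0.406, ANGPTL4 at 0.143, PGF at 0.128 and FLT1 at 0.00205, and the libraries of ANGPTL4 and PGF overlapped. At 24 h the order was led by ADM at 618 (425 and 812) and EDN2 at 169 (67.4 and 270.2), which was then above VEGFA at 18.7 and VEGFB at 19.2. The place of VEGFA depends on the length used, because its annotated exons sum to 14431 bases while its canonical transcript has 3609. Per kilobase of the canonical transcript VEGFA was at 40.9 in normoxia (SD 2.25) and ADM at 36.4 (SD 4.36), so the order of these means turned. Their libraries overlapped (38.4 to 42.6 for VEGFA and 31.6 to 40.1 for ADM). At 24 h ADM still led on this scale (661.8 and 1265). VEGFA was above EDN2 in replicate 1 (105.5 against 88.7) and below it in replicate 2 (44.2 against 355.7). The mean of VEGFA (74.8) was then above that of VEGFB (21.0).

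Shares within a ligand family do not depend on scaling between libraries. Counts were first divided by exonic length. VEGFA then made up 34.5% ± 2.14 (SD, n = 3) of the VEGF ligand sum in normoxia, 52.9% ± 7.07 at 6 h and 52.7% ± 4.54 at 12 h. Neither time overlapped normoxia (exact two-sided permutation p = 0.1 at each time, the smallest possible). VEGFB held 59.9% ± 2.54 in normoxia, 29.0% ± 6.84 at 6 h and 30.8% ± 3.15 at 12 h, and PGF 0.433% ± 0.0843, 6.00% ± 1.53 and 5.97% ± 1.83, with the same exact p. With canonical lengths the VEGFA share was 65.4% in normoxia and 76.1% at 6 and 12 h, so the direction held while the level moved. VEGFB then held 31.1% in normoxia, so the order of VEGFA and VEGFB there depends on the length used. In raw counts VEGFA held 78.8% and VEGFB 18.7% in normoxia. The pair at 24 h did not share a composition: VEGFA held 50.2% in replicate 1 and 25.3% in replicate 2, and the mean was above normoxia per exonic base and below it with canonical lengths (60.0%). PGF held 10.6% and 12.0% in these libraries. Among the endothelins EDN2 made up 84.3% ± 2.57 in normoxia, 90.9% ± 2.60 at 6 h, 98.1% ± 1.29 at 12 h and 98.5% and 99.8% at 24 h (exact permutation p = 0.1 at 6 and at 12 h), while EDN3 had at most 1 count in any library.

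**Figure D4:**
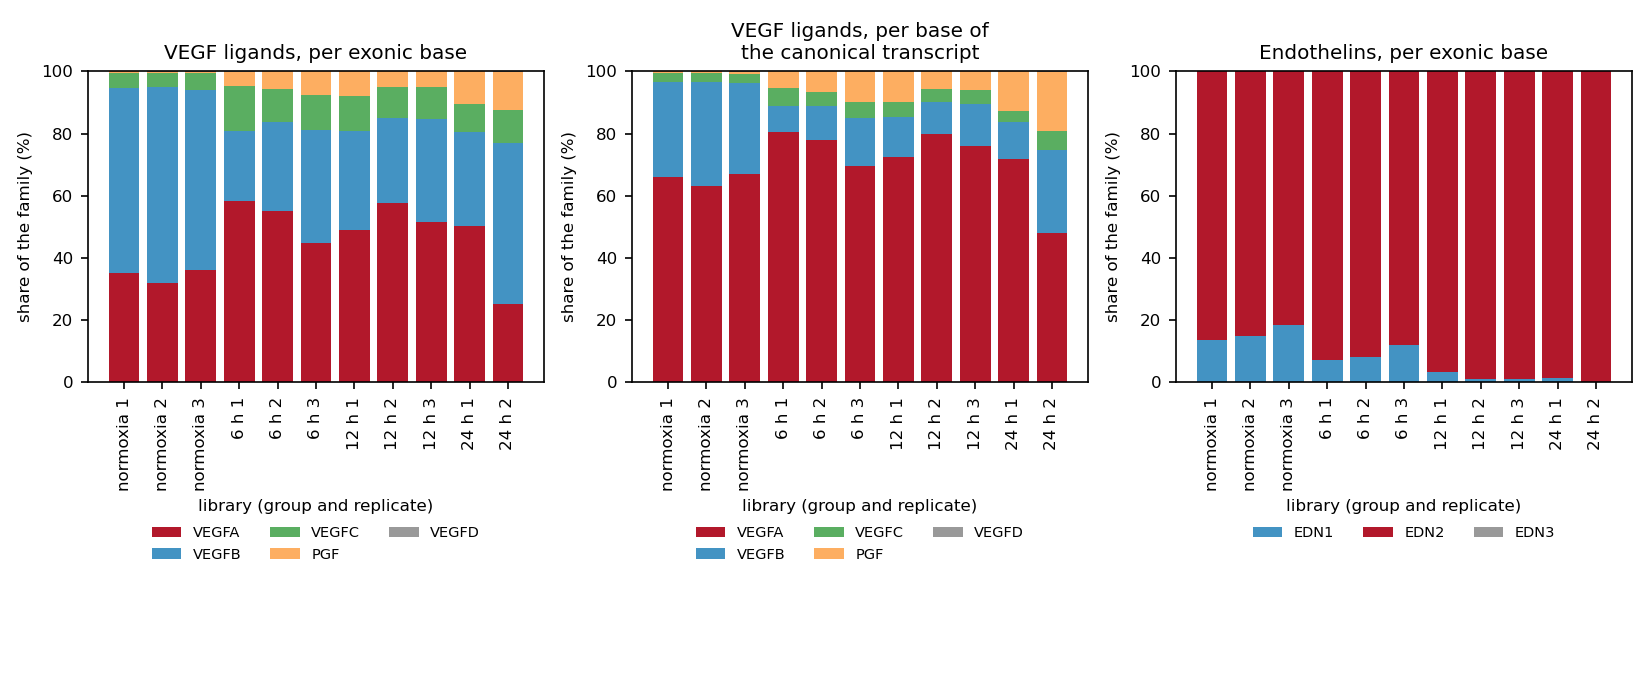
Stacked bars give, for each of the 11 libraries, the share in percent of each VEGF ligand per exonic base (left) and per base of the canonical transcript (middle), and of each endothelin per exonic base (right). The VEGFB share is smaller in each hypoxic library than in normoxia, the PGF share is larger, and the EDN1 share shrinks to 0.188% in 24 h replicate 2.

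The third question is what surrounds these genes in the same pathways. A list of 100 further genes in 8 groups was taken, of which 52 passed the filter. At 6 h 22 of the 52 were higher and 12 lower, at 12 h 19 and 9, and at 24 h 20 and 9. Over all genes tested the shares were 25.1% higher and 27.7% lower at 6 h, 24.2% and 27.1% at 12 h, and 29.9% and 31.3% at 24 h, and the counts of the groups below are to be read against these. Their median log2 fold changes were 0.36, 0.25 and 0.42. The receptors that would answer these ligands on vessels were at or near the detection limit. KDR and FLT4 had at most 10 counts in any library, EDNRA 6, EDNRB 3, TEK 4 and RAMP2 5, and RAMP3 had 0. CALCRL, a part of the adrenomedullin receptors, had a mean of 0.431 CPM in normoxia and 0.0628, 0.210 and 0.200 CPM at 6, 12 and 24 h. At these levels it may have passed the filter only through normoxia, which favours a fall in hypoxia. No test of CALCRL is therefore given. RAMP1, which pairs with CALCRL in a receptor for a peptide other than adrenomedullin, was higher at each time (log2 fold changes 2.04, 2.30 and 3.47). ADM2, a relative of ADM, was lower at each time (-2.84, -2.93 and -3.62), opposite to ADM itself.

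Of 17 tested genes for other secreted angiogenic factors, 7, 8 and 10 were higher and 3 were lower at 6, 12 and 24 h, where 52.8%, 51.2% and 61.2% of all genes were called in either direction. Among those called in 1 direction at all times with a large average change were EREG, a ligand of the epidermal growth factor receptor (3.02, 2.65 and 3.65), CCN1, a matrix protein (1.65, 1.81 and 3.28), ANG, a secreted ribonuclease (1.22, 1.28 and 2.09), and PDGFB, which recruits pericytes (1.43, 1.33 and 1.03). FGF2, a growth factor for endothelium, was lower (-0.97, -0.96 and -1.09).

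Of 9 tested antiangiogenic factors, 4, 3 and 3 were higher and 2, 3 and 3 lower, so 6 were called at each time, a share near that of all genes. ADAMTS1, a protease that releases antiangiogenic fragments and binds VEGFA, had log2 fold changes of 3.85, 4.33 and 5.91. THBS1, a matrix inhibitor of angiogenesis, stood at 2.50, 2.02 and 1.19. Its relative THBS2 stood at 1.59, 1.44 and 0.76, the last of which lost its call without 24 h replicate 1 (0.38) or normoxia replicate 2 (0.62) and turned to -0.10 when libraries were scaled by size alone. TIMP3, an inhibitor of metalloproteases, was lower (-0.95, -1.15 and -1.01), as was SPINK5, a protease inhibitor (-1.97, -1.16 and -1.84). SPINK5 lost its 12 h call when any of the normoxia replicates, 6 h replicate 1, 12 h replicate 2 or 12 h replicate 3 was left out (-1.27 to -0.91) and its 24 h call with 24 h replicate 1 alone (-1.27). Of 6 tested genes for other vasoactive enzymes and peptides 4 were higher at each time (25.1%, 24.2% and 29.9% of all genes), among them PTGS1 (1.36, 2.03 and 1.68) and PTGES (1.34, 1.72 and 1.96), enzymes of prostaglandin synthesis. With 24 h replicate 1 alone and with replicate 2 alone, the 24 h log2 fold changes were 6.71 and 3.73 for ADAMTS1, 4.35 and 2.09 for EREG, 3.94 and 1.88 for CCN1, and 2.19 and 4.08 for RAMP1.

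**Figure D5:**
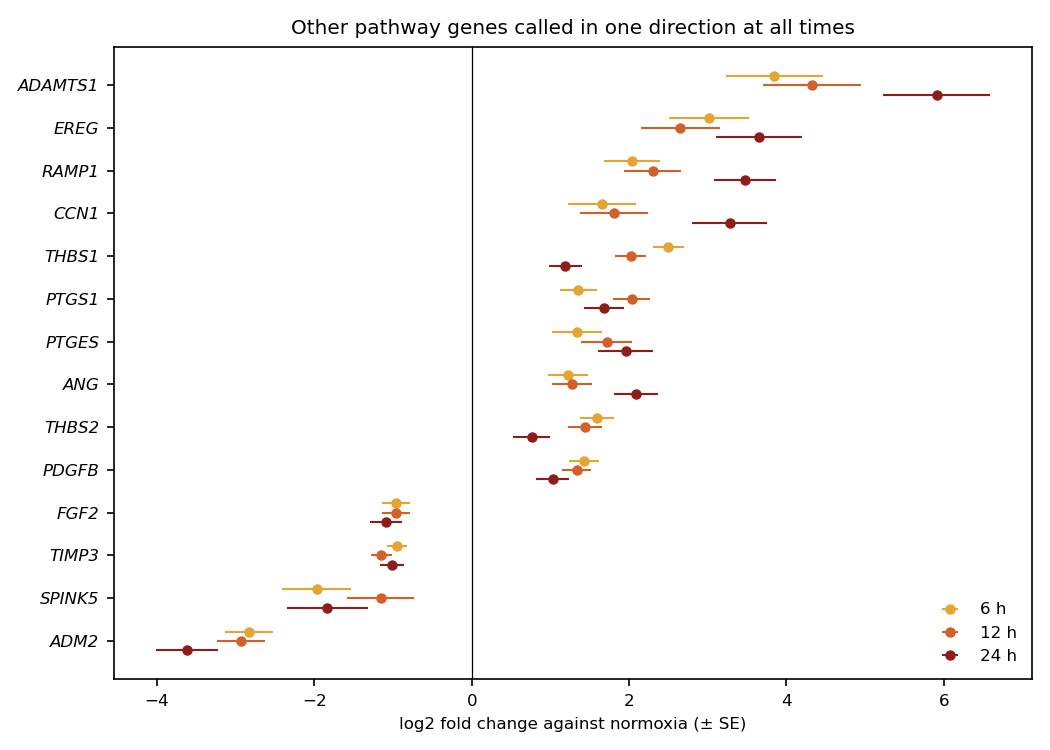
Log2 fold change against normoxia with bars of 1 SE at 6, 12 and 24 h for pathway genes, beyond the 10 factors, that were called in the same direction at all times with a large average change. ADAMTS1 and EREG lie farthest to the right, and ADM2, SPINK5, TIMP3 and FGF2 lie left of 0.

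The tested genes most like each factor over the 11 libraries were found by Pearson's r on log2 CPM among 13938 genes with a symbol and a mean of at least 1 CPM. For VEGFA these were NAV1 (r = 0.982), STK10 (0.978) and RNF40 (0.978). For ANGPTL4 they were PGAM1 (r = 0.994), EFNA3 (0.993) and RAB20 (0.993), and for EDN2 AVPI1 (0.993), CDA (0.987) and THAP3 (0.987). Among the factors themselves r was 0.97 for ANGPTL4 with ADM, 0.955 for VEGFC with PGF and 0.461 for VEGFA with EDN2. The libraries fall into the 4 groups and share them, so these values only describe the order of the genes.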

How the data were processed

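The deposited file is a table of whole-number read counts per Ensembl gene, which the authors made by trimming with Trimmomatic, aligning 75-cycle single-end reads of stranded libraries with STAR and counting with featureCounts. The strand and multi-mapping settings of the counting are not given in the sources used here. The table covers 60676 genes and 11 libraries, with 0 columns left unmatched. Symbols, positions and lengths are from GENCODE release 44 on GRCh38 (60357 identifiers found).

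filterByExpr (minimum count 10, minimum total 15) kept 19981 genes. All 11 libraries were fitted in edgeR with TMM scaling, quasi-likelihood and 1 mean per group (residual df 7). The standard error is the absolute log2 fold change over the square root of F, with Benjamini-Hochberg adjustment of p across all genes tested. log2 CPM used a prior count of 2. The pathway genes named were called in 1 direction at 6, 12 and 24 h, with a mean of at least 1 CPM and an absolute average log2 fold change of at least 1, up to 20 genes. FLT1 ratios have exact conditional binomial (Clopper-Pearson) 95% intervals. The 10 genes, the lists and the tests were chosen with earlier results of these data known. Alternatives were limma-voom with and without sample quality weights, DESeq2, other scaling, other filters, only the groups compared, a replicate block, and each library left out. Canonical-transcript length was added after seeing the data. In simulated counts the test called 85 of 94 genes changed by a log2 fold of 2 at 6 h, and 87 and 77 of 94 at 12 and 24 h. For a log2 fold of 1 it called 47, 44 and 33 of 93. The simulation changed only 200 genes, up and down alike and equally at each hypoxic time. In the data 52.8%, 51.2% and 61.2% of genes were called at 6, 12 and 24 h. These rates therefore do not give the sensitivity of the test in these data. The software was edgeR 4.0.16, DESeq2 1.42.0 and limma 3.58.1 under R 4.3.3, and matplotlib 3.10.9 with pandas 2.3.3 under Python 3.11.15. The smallest p of an exact permutation test here is 0.1. Protein sequences were not used here. Some genes of the lists are counted but not reported by name here.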

Additional observations from a re-analysis of the deposited data

Results flagged for a closer look

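Differences between hypoxic times drew attention for 3 of the factors in the edgeR quasi-likelihood fit (adjusted p by Benjamini-Hochberg). EDN2 differed between 6 and 12 h by a log2 value of 1.87 (1.868, adjusted p = 0.0474) and between 12 and 24 h by 1.97 (1.967, adjusted p = 0.0156). ANGPTL4 differed between 12 and 24 h by 1.65 (1.648, adjusted p = 0.0089). FLT1 was lower at 24 h than at 12 h by a log2 value of -2.35 (-2.346, adjusted p = 0.0216), on 6 and 0 counts against 26, 21 and 31. It passed the filter only through its 6 and 12 h libraries, which favours a fall at 24 h. Its p is therefore not a sound test of that fall. The 12 to 24 h differences were not called with 24 h replicate 1 alone.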

How the results depend on the processing

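FLT1 is left out of this comparison of calls against normoxia, since only its hypoxic libraries admitted it. VEGFC, PGF, ANGPTL4, ADM, EDN2 and NRP1 kept direction and call at 6, 12 and 24 h in every alternative that tested them. VEGFA did so at 6 and 12 h and EDN1 at 6 h. At 24 h VEGFA lost its call in 4 of 20 alternatives and EDN1 in 7. EDN1 gained a 12 h call in 6, and VEGFB a 6 h call in 3 and a 12 h call in 1. Over 989 alternative values for the factors, FLT1 included, 898 kept direction and side of the threshold, 34 lost a call, 36 gained one and 21 reversed. Over 900 for the named pathway genes, 880 kept both, 19 lost a call and 1 reversed. Among these, PDGFB lost its 24 h call in 2 of 20 alternatives (lowest value 0.088) and THBS1 in 1 (lowest value 0.296). Scaling by library size alone moved the median log2 fold change of all genes to -0.32, -0.50 and -0.97, and the higher share of called genes from 47.6%, 47.2% and 48.8% to 27.6%, 20% and 16.4%, at 6, 12 and 24 h. VEGFA (0.084) and EDN1 (0.073) then lost their 24 h calls, VEGFB became -0.87 at 24 h, and THBS2 -0.095. VEGFB at 24 h also reversed without a filter (-0.012), with at least 10 counts in every library (-0.046) and without 24 h replicate 2 (leaving out single libraries, -0.19 to 0.28). FLT1 at 24 h reversed without 24 h replicate 1 (-3.03 to 3.22), a fitted value on 0 counts.

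From 6 to 12 h, where 1 factor was called, 0 were called by limma-voom, median-of-ratios factors, library size alone and the replicate block. Without a filter 2 were called, and 3 by voom with quality weights, DESeq2 and only the 2 groups compared. Calls in the whole table were 989 in the main fit and, in the order of these settings, 974, 1036, 690, 510, 1674, 4489, 1922 and 1876. VEGFC reversed with quality weights (-0.013), DESeq2 (-0.010), median-of-ratios factors (-0.008), library size (-0.14), at least 10 counts (-0.003) and without 6 h replicate 2 or 12 h replicate 1 (-0.061 to 0.05). PGF reversed with quality weights (-0.028) and without 6 h replicate 1 or 12 h replicate 1 (-0.15 to 0.46), and FLT1 with library size (-0.043) and without 12 h replicate 1 (-0.025 to 0.21).

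From 12 to 24 h, where 3 were called, FLT1 included, 0 were called with quality weights and with only the 2 groups compared. Without a filter 6 were called, and 1 with at least 10 counts. Calls in the whole table were 5668 in the main fit, 1093 with quality weights, 6144 without a filter and 5293 with at least 10 counts. With only the 2 groups compared edgeR called 0 genes of the whole table, with 5671 at an unadjusted p under 0.05 and 6536 called by DESeq2 on all libraries. VEGFB reversed with library size (-0.26) and without 24 h replicate 2 (-0.050 to 0.44), and EDN1 with library size (-0.14) and without 24 h replicate 1 (-0.38 to 0.62). Quality weights called 16 pathway genes at 24 h, against 29, while calls in the whole table went from 12235 to 6169. The VEGFA share at 24 h was 3.25 percentage points above normoxia and became -9.22 without 24 h replicate 1 (-9.22 to 15.7), -5.47 with canonical lengths and -4.79 in raw counts. The causes of these changes were not tested. The filter of at least 10 counts removed ANGPTL4 and FLT1.

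Deviations of same-numbered libraries correlated at -0.156 to 0.207 and those of differently numbered ones at -0.271 to 0.283. Not every library correlated best with its own number. Groups of 2 or 3 libraries are too small for these values to show whether the numbers pair the libraries. With the replicate block EDN1 lost its 24 h call against normoxia (edgeR adjusted p = 0.0539) and EDN2 its call from 6 to 12 h (0.0721). The other calls of the factors without FLT1 held. Genes called in the whole table from 6 to 12 h went from 989 to 510. In normoxia FLT1 had 0 to 2 counts, ANGPTL4 7 to 22, PGF 25 to 37 and EDN1 27 to 37, which limits their precision.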

Other observations

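Further genes were measured beside the factors. PTGS2, the inducible cyclooxygenase, had mean levels of 3.11, 1.37, 8.15 and 48.2 CPM in normoxia and at 6, 12 and 24 h, the 24 h libraries lying at 12.6 and 83.9 CPM. CXCL8, a chemokine that also attracts endothelial cells, had 0.491, 0.459, 0.994 and 6.23 CPM, with 1.64 and 10.8 CPM at 24 h. APLN, which encodes the vasoactive peptide apelin, had at most 2 counts in any normoxic library and a mean of 0.386, 0.632 and 0.732 CPM at 6, 12 and 24 h. These 3 genes were chosen after their values were seen.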
